A study of Danio rerio with 96 samples.

Results

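The 100 features described here were chosen by their own measured counts, from a table of 3183 features, as those lower in December than in November in whole zebrafish larvae pooled by 10 and by 20. Counts were first put on the log2 CPM scale (CPM, counts scaled to a total of 1000000 per library, with 0.5 added to each count before the log). The difference between the December batch and the mean of the 2 November batches was then taken in each of these pool sizes. A feature could enter with a mean count of 50 to below 5000 over the 96 libraries, with both differences below 0, and with a standard deviation (SD) of 0.45 to 1 among single larvae after the mean of samples 1 to 4 or 5 to 8 of their batch was removed. Of 781 features within the limits on count and spread, 547 were lower in both pool sizes, and the 100 with the most negative value of the smaller of their 2 differences are the members. The count limits, the spread among single larvae and the December differences are therefore part of the choice and are given as description, without a test.

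At 120 hours after fertilization a zebrafish larva has hatched and swims, and it lives on the last of its yolk while gut, liver and pancreas take up their work. Steady-state RNA in a whole-larva extract is a sum over all tissues, so fewer cells of a type and less RNA per cell cannot be told apart. TempO-Seq reads short targets: 2 detector oligonucleotides that anneal side by side on an RNA are ligated, and the ligated product is amplified and counted, so that what is counted is the probed stretch of an RNA rather than the whole of it. The rows of the count table carry neither gene nor probe names. A feature's number below is its row in the table, the first row being 1, and members are described without gene roles, tissue markers or sequences. The label of whole embryos was for the same reason not checked against tissue markers.

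All 96 samples were controls of 1 kind: larvae held from soon after fertilization in 0.10% dimethyl sulfoxide (DMSO), the solvent of chemical tests, for 5 days. No line or genotype is stated in the labels, and no sample received a further chemical. Each sample held 1, 5, 10 or 20 larvae, written here as pool1, pool5, pool10 or pool20. A pool size had 24 samples, extracted in 3 batches of 8. In pool10, batches 1 and 2 came from an exposure begun on 2 November and were extracted on 23 and 24 November, while batch 3 came from an exposure begun on 13 December and was extracted on 18 December. In pool20 all 3 batches came from the exposure begun on 4 November, and they were extracted on 23 November, 24 November and 15 December. The December batch of pool10 thus differs from its November batches in exposure, in extraction date and in time between the end of exposure and extraction (16 and 17 days against 0 days), and these cannot be told apart. The December batch of pool20 differs in extraction date, which is also a difference in that time (14 and 15 days against 36 days). All of pool5 and batches 1 and 2 of pool1 came from the exposure begun on 12 December and were extracted on 17 December, and batch 3 of pool1 shared the 2 dates of pool10 batch 3. Total counts ran from 3336312 to 6441627 per library, with a median of 4498706. Every member had at least 1 count in each of the 96 libraries, and all 100 passed the filter on low counts in every test.

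The differences that chose the members were larger in pool10 than in pool20. In pool10 the median member was 1.71 lower on the log2 scale in the December batch, or 3.26-fold, with a range of -4.37 to -0.76. In pool20 the median was 0.91 lower, or 1.88-fold, with a range of -2.0 to -0.73. The pool10 difference was the larger in 91 members and the pool20 difference in 9. The pool10 difference exceeded the member's own SD among single larvae in all 100 members, and the pool20 difference did so in 88. The choice took the most negative differences and an SD of at most 1, so these counts follow largely from it. Over all 3183 features the medians were -0.86 in pool10 and -0.32 in pool20, so December libraries were lower in most features on this scale. With totals adjusted by TMM (edgeR's trimmed mean of M values), the median over all features moved up by 0.61 in pool10 and by 0.26 in pool20. The members' medians then became -1.09 and -0.65, and all 100 stayed below 0 in both pool sizes. The median member stood at -0.84 in pool10 and -0.60 in pool20 relative to the median feature, a quantity that a change of totals cannot move.

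**Figure D1:**
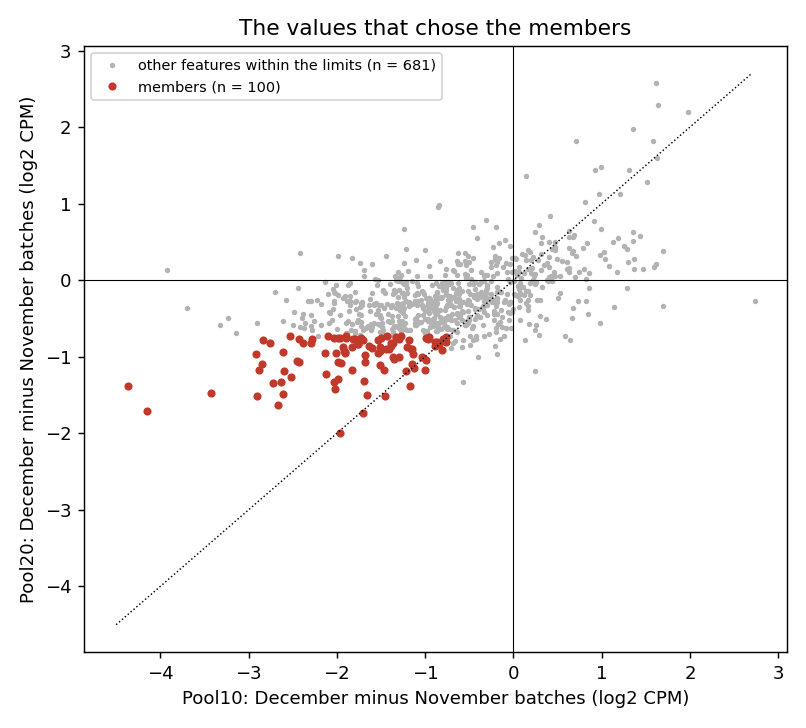
December minus November difference in log2 CPM in pool10 (horizontal) and pool20 (vertical) for the 100 members (red) and the 681 other features within the limits on count and spread (grey). The dotted line marks equal differences. Members lie below -0.73 in pool20, and 91 of the 100 lie above the line because their pool10 difference is the larger.

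The edge of the list was not a gap. The last 3 members, features 2382, 41 and 2431, had pool20 differences of -0.732, -0.732 and -0.731. The first 3 features outside, 2507, 1072 and 1997, had -0.731, -0.729 and -0.728. Feature 2507 and the last member are equal to 3 digits, so membership at this end of the list is arbitrary.

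At the top of the list stood feature 703, whose level was low in every December library of both pool sizes. Its 16 November pool10 libraries held 31.3 to 117 CPM, with a median of 72.7, and the 8 December pool10 libraries held 12.3 to 30.1, with a median of 15.9. In pool20 the November libraries held 21.9 to 86.5 CPM, with a median of 55.6, and the December libraries 7.66 to 19.6, with a median of 12.2. Neither pair of ranges overlapped. The geometric means differed by 3.90-fold in pool10 and 3.99-fold in pool20, which made feature 703 one of the 9 members with the larger difference in pool20.

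Feature 790, the next in rank, had a much larger difference in pool10. It held 13.2 to 114 CPM in November pool10 libraries (median 32.3) and 0.746 to 7.51 in December (median 1.72), a 17.7-fold difference. In pool20 it held 14.5 to 69.3 CPM in November (median 21.7) and 4.72 to 10.4 in December (median 7.59), a 3.26-fold difference. The November and December libraries were again fully separated. At the low end these are few reads, since 3 counts equal 0.899 CPM in the smallest library and 0.466 CPM in the largest.

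Feature 668 was the most abundant of the 6 and had nearly the same level in both pool sizes at either time. The 16 November libraries of pool10 held 131 to 267 CPM (median 199) and those of pool20 held 142 to 272 (median 188). In December the ranges were 48.2 to 77.9 CPM (median 58.9) and 45.9 to 90.7 (median 53.4). The folds were 3.26 and 3.34, with no overlap between months in either pool size.

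Features 352 and 1683 were lower in pool10 by more than in pool20, and feature 2207 was the one of the 6 whose months overlapped. Feature 352 held 32.3 ± 12.4 CPM (SD, n = 16) in November and 4.91 ± 1.77 (n = 8) in December pool10 libraries, against 24.0 ± 5.46 and 7.97 ± 3.05 in pool20. Its ranges did not overlap, being 15.9 to 59.4 against 2.87 to 7.41 in pool10 and 16.0 to 34.03 against 4.92 to 14.1 in pool20. Feature 1683 held 86.6 ± 21.9 and 12.0 ± 3.92 CPM in pool10, a 7.46-fold difference of geometric means. In pool20 it held 51.96 ± 8.43 and 18.4 ± 5.10, a 2.86-fold difference, and its months did not overlap in either pool size. Feature 2207 held 6.21 to 50.7 CPM in November and 2.83 to 9.31 in December pool10 libraries. In pool20 its highest December library (7.83) stood just above its lowest November library (7.69).

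**Figure D2:**
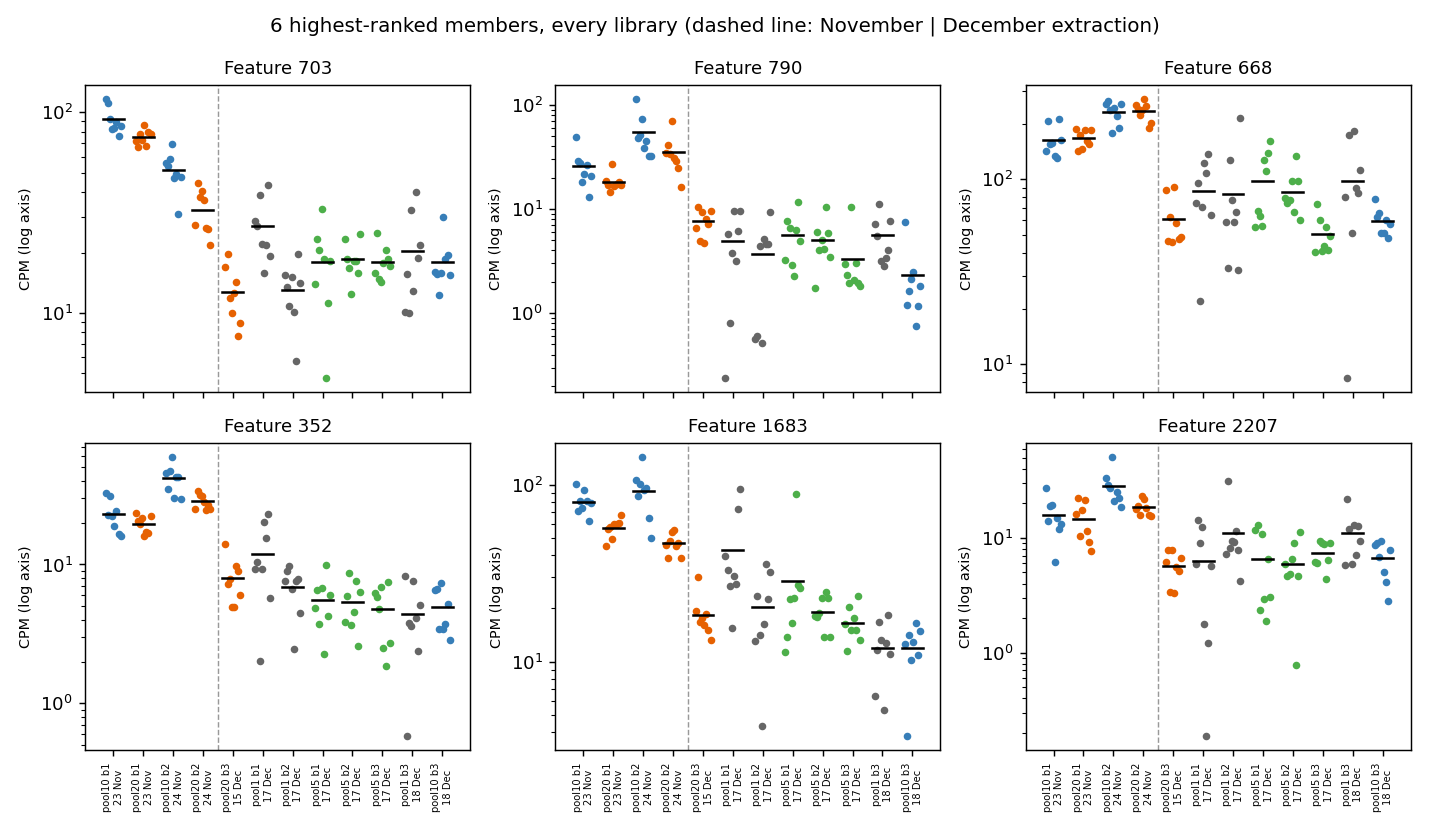
CPM on a log axis in each of the 96 libraries for features 703, 790, 668, 352, 1683 and 2207, by extraction batch in order of date (grey pool1, green pool5, blue pool10, orange pool20). Each point is a library and each bar a batch mean. In pool10 and pool20 the points right of the dashed line, which separates November from December extractions, lie below those of the same pool size left of it, except in feature 2207.

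The next 4 members in rank were features 164, 2458, 253 and 1062, with pool10 differences of -2.61, -3.42, -1.46 and -2.02 and pool20 differences of -1.49, -1.47, -1.51 and -1.42. The members were mostly of low to moderate abundance: the median of their mean counts was 98.8, 50 of them had a mean count under 100, and 8 had one of at least 500. Feature 2943 had the highest mean count, 2776. It held 741 ± 156 CPM in November and 426 ± 23.4 in December pool10 libraries, and 730 ± 92.7 and 436 ± 44.2 in pool20, so the most abundant member was also near the smallest difference. Feature 2484 had the widest gap between the 2 pool sizes. Its November levels were 628 ± 311 CPM in pool10 and 393 ± 149 in pool20, and its December levels were 28.0 ± 8.34 and 147 ± 49.5. Feature 1890 had the gap in the opposite direction, with -1.17 in pool10 and -1.38 in pool20.

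Complete separation of months was the less common outcome in pool20. In pool10, all 8 December libraries lay below all 16 November libraries in 80 of 100 members, beside 35.6% of the 3177 features that were counted at all and 225 of the 681 other features within the limits. In pool20 this held for 43 members, beside 7.43% of all features and 26 of the 681. These counts come from the contrasts that chose the members and are descriptions only.

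Levels in the 12 batches gave the order of the members across the series. The median over members of their batch mean was highest in pool10 batch 2 at 5.52 log2 CPM, followed by pool10 batch 1 at 5.06, pool20 batch 2 at 4.97 and pool20 batch 1 at 4.89. The 8 December batches lay between 3.53 in pool10 batch 3 and 4.04 in pool1 batch 1. The other features within the limits had a much smaller range over the same batches, from 5.45 in pool10 batch 2 to 4.69 in pool1 batch 3. Since the members were chosen for their falls in pool10 and pool20, a wider range among them is built into the choice. Library by library, the member median was 4.98 to 6.01 in pool10 batch 2, 4.80 to 5.40 in pool10 batch 1, 4.69 to 5.19 in pool20 batch 2 and 4.83 to 4.95 in pool20 batch 1. Neighbours in this order overlap, while pool20 batch 3 (3.73 to 4.31) and pool10 batch 3 (3.36 to 3.81) lie below every November library. That gap, too, comes from the contrasts that chose the members and is description only. The summed level of the 100 members was 7836 ± 1498 CPM (SD, n = 8) in pool10 batch 2 and 2093 ± 106 in pool10 batch 3. In pool20 it was 5772 ± 226 CPM in batch 1 and 2881 ± 279 in batch 3.

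The batch means put the members' peak mostly in 1 batch and their low point in several. The highest of the 12 batch means fell in pool10 batch 2 for 75 members, in pool10 batch 1 for 14, in pool20 batch 1 for 6, in pool1 batch 1 for 4 and in pool20 batch 2 for 1. The median over all features was also highest in pool10 batch 2, at 5.32 log2 CPM, and the choice of members favours a November peak. How many other features peak in each batch was not counted. The members' lowest batch mean was spread over 8 batches, with 24 members lowest in pool5 batch 3 and 21 in pool10 batch 3. Pool20 batch 3, the batch of November larvae extracted in December, was above pool10 batch 3 in 81 members. It was above all 3 pool5 batch means in 39 members and below all 3 in 20. The median over all features was likewise higher in pool20 batch 3 (4.70 log2 CPM) than in pool10 batch 3 (4.41) and in the pool5 batches (4.48 to 4.53). Pool20 batch 3 and pool10 batch 3 also entered the choice of members, so these counts are descriptions only. The same counts of lowest batches and of the place of pool20 batch 3 were not made for other features. Whether the members differ from the panel in them is therefore not known.

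**Figure D3:**
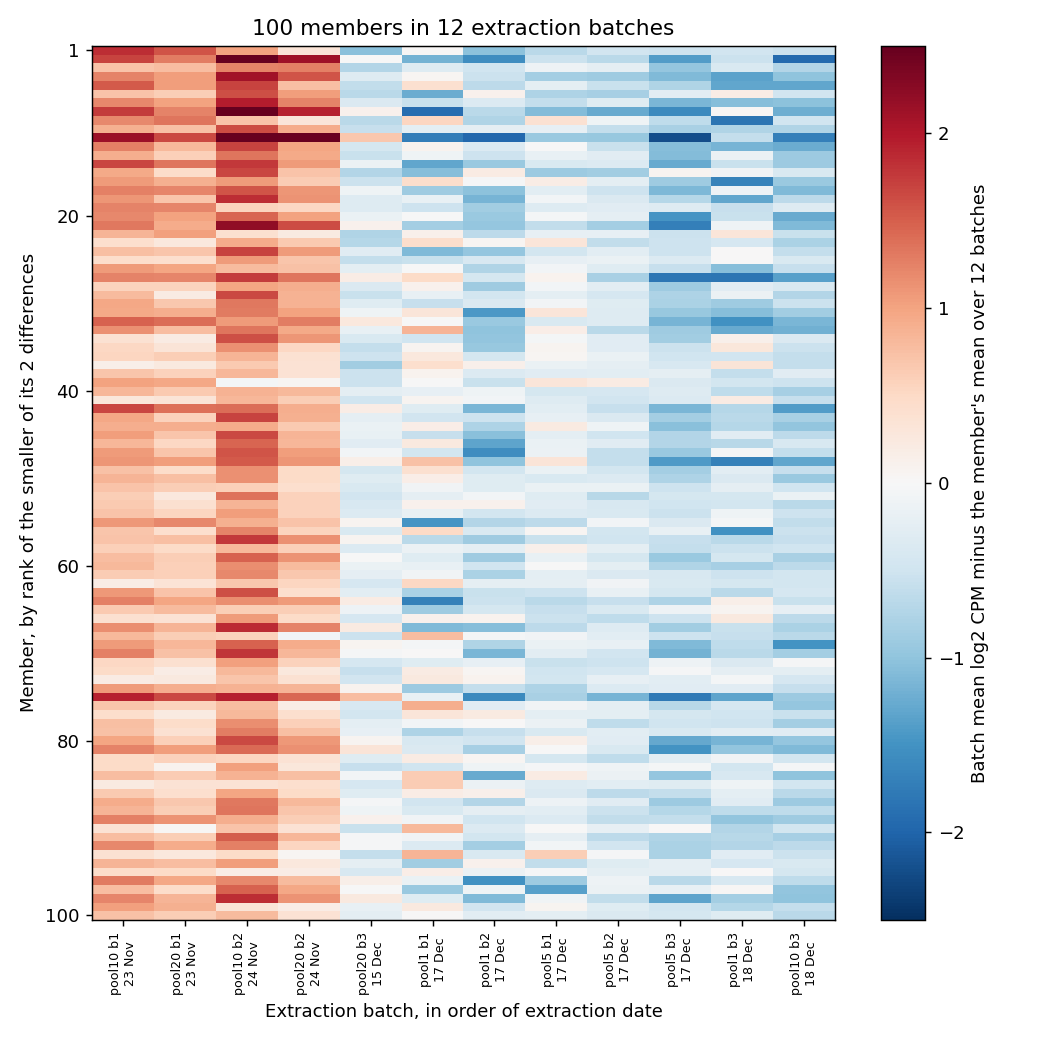
Batch mean of log2 CPM for each of the 100 members (1 row each, by rank) minus that member's mean over the 12 batches, in order of extraction date. Red is above the member's own mean and blue below, and values beyond the scale take its end colours. The 4 November batches are red in nearly all members, most deeply in pool10 batch 2, and the 8 December batches are mostly pale or blue.

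The members were also low in pool5 and pool1, which the December differences did not use, but that reading shares the November libraries with the rule. The median over members of the mean level was 39.6 CPM in November pool10 and 29.9 in November pool20, against 12.0 and 15.0 in the December batches of the same pool sizes, 14.8 in pool5 and 16.8 in pool1. All 6 batch means of pool5 and pool1 lay below all 4 November batch means in 82 members, and in 253 (37.2%) of the 681 other features within the limits. This count was not made over all features. Their median was also lower in pool5 and pool1, at 4.38 to 4.63 log2 CPM in the 6 batches against 4.98 to 5.32 in the 4 November ones. Feature 668, for example, held 40.6 to 161 CPM in pool5 and 8.43 to 216 in pool1, so that single larvae reached from far below the December pools of 10 up to November levels. Feature 703 held 18.2 ± 5.5 CPM in pool5 and 20.1 ± 10.2 in pool1, against 17.9 ± 5.36 in the December pool10 batch.

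The members already differed between 2 extraction days in November, in both directions. The rule did not use this difference, since the 2 November batches entered it only as their mean. The test is still not independent of the choice, because the same libraries supplied that mean. A choice by a high November mean can favour features that are high in the batch that varies more. In pool10, 43 of 100 members were higher and 15 lower on 24 than on 23 November (edgeR quasi-likelihood test, Benjamini-Hochberg adjusted p below 0.05 over 3086 features). Over all tested features 25.3% were higher and 26.9% lower, and of the 681 other features within the limits 100 were higher and 193 lower. In pool20, 19 members were higher and 17 lower, beside 19.5% higher and 17.8% lower over all features and 82 and 148 of the 681. The median log2 change of the members was 0.24 in pool10 and 0.13 in pool20, against 0.02 and 0.04 over all tested features. The pool20 counts are close to the background, and in pool10 the members' higher calls exceed it while the lower calls fall short of it. How much of this comes from the choice by the November mean was not tested. With samples 5 to 8 of batch 1 left out, the pool10 counts were 24 higher and 8 lower, beside 12.9% and 17.4% of all features.

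Features 1302, 790 and 2484 had the largest rises on 24 November among members in both pool sizes. Feature 1302 held 23.3 ± 5.44 CPM on 23 November and 56.6 ± 17.3 on 24 November in pool10 (n = 8 each), a log2 change of 1.10 ± 0.14 (SE; edgeR adjusted p = 1.12e-07). In pool20 it went from 20.4 ± 2.30 to 38.8 ± 8.81 CPM, a change of 0.93 ± 0.14 (edgeR adjusted p = 4.76e-06). Feature 790, second in rank in the list, rose by 0.92 ± 0.22 in pool10 (edgeR adjusted p = 8.07e-04) and by 0.93 ± 0.22 in pool20 (edgeR adjusted p = 0.00142). Feature 2484 rose from 404 ± 118 to 851 ± 281 CPM in pool10 and from 280 ± 40.2 to 507 ± 128 in pool20, with log2 changes of 0.90 ± 0.14 and 0.85 ± 0.14 (edgeR adjusted p = 3.88e-06 and 1.63e-05). These 3 features were therefore highest in the later November extraction and low in December. Feature 1756 rose by 0.89 ± 0.14 in pool10 (edgeR adjusted p = 5.72e-06), and feature 311 rose by 0.74 ± 0.14 in pool20 (edgeR adjusted p = 1.46e-04).

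Among members that fell, feature 703 had the largest change in pool20 and feature 1268 in pool10. In pool10 feature 703 held 92.1 ± 14.4 CPM on 23 November and 51.7 ± 11.0 on 24 November, a log2 change of -0.99 ± 0.10 (edgeR adjusted p = 1.19e-09). In pool20 it held 75.3 ± 6.56 and 32.6 ± 8.11 CPM, a change of -1.21 ± 0.11 (edgeR adjusted p = 3.03e-11), and 12.7 ± 4.05 on 15 December. Feature 1268 fell from 213 ± 27.6 to 106 ± 29.5 CPM in pool10 (-1.13 ± 0.15, edgeR adjusted p = 2.41e-07) and from 207 ± 20.9 to 112 ± 24.9 in pool20 (-0.87 ± 0.15, edgeR adjusted p = 3.08e-05). Features 41 and 115 fell in pool10 by 0.85 and 0.82 on the log2 scale (edgeR adjusted p = 6.03e-10 and 1.18e-07). Features 253 and 1890 fell in pool20 by 0.98 and 0.76 (edgeR adjusted p = 1.51e-04 and 8.43e-06). Time from exposure to extraction and extraction batch move together in this contrast, and their parts in it cannot be told apart.

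The day changes of the members ran alongside each other in the 2 pool sizes, which share no library. Of the 100 members 18 were higher in both and 12 lower in both, 25 were higher and 3 lower in pool10 only, 1 was higher and 5 lower in pool20 only, and 36 passed in neither. No member passed in opposite directions, beside 1 of all 3086 features. In pool10 only, 11.2% of all features were higher and 11.1% lower. In pool20 only, the shares were 5.38% and 2.04%, and 40.4% of all features passed in neither. Over all 3086 features 14.1% were higher in both and 15.8% lower in both, and of the 681 others 53 and 130, so calls shared by the pool sizes were common throughout the panel. Pearson's r between the 2 sets of log2 changes was 0.89 over the 100 members, 0.84 over the 681 others and 0.85 over all 3086 tested features, a description across features that share the batches and the extraction days. For the difference between the 2 day changes, edgeR called 0 members and 0.0648% of all features. At an unadjusted p below 0.05 the counts were 10 members and 268 features. DESeq2 also called 0 members, beside 2 higher and 1 lower of 3174 features. No difference in day change between the pool sizes was thus detected in a member, which does not show that the changes are equal. The median of the difference, pool20 minus pool10, was -0.11 over members and 0.04 both over all tested features and over the 681 others. How much of this comes from the choice of members was not tested.

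**Figure D4:**
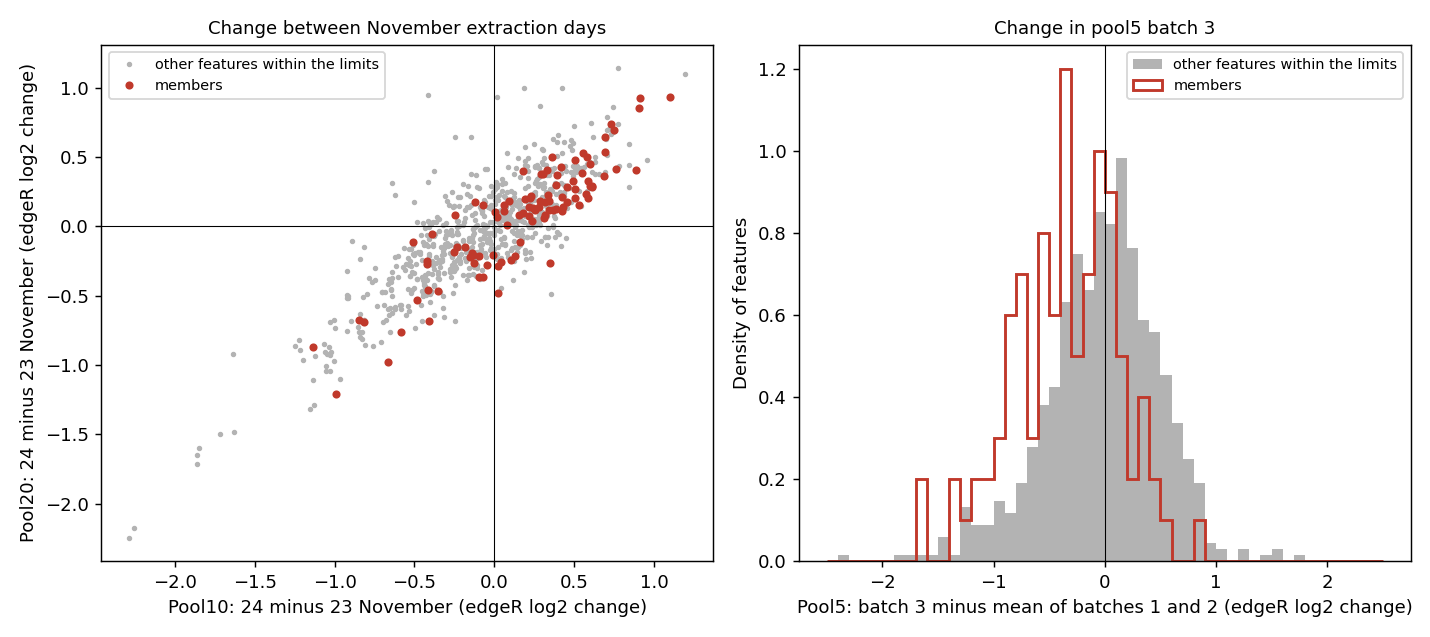
Left, edgeR log2 change from 23 to 24 November in pool10 (horizontal) and pool20 (vertical) for members (red) and the other features within the limits (grey). Right, distribution of the log2 change of pool5 batch 3 against batches 1 and 2, as density, for the same sets. The members reach from -1.13 to 1.10 in pool10 on the left, and on the right their median of -0.35 lies below that of the grey set, 0.01.

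In pool5, batch 3 was the low batch for the members, although all 3 batches came from 1 exposure and were extracted on 1 day. Against the mean of batches 1 and 2, 23 of 100 members were lower and 1 was higher in edgeR, beside 9.77% lower and 8.6% higher of the 2733 features tested, and 73 lower and 75 higher of the 681. The members' median log2 change was -0.35, against 0.01 for all features. Feature 1406 held 421 ± 627 CPM in batch 1, 141 ± 88.8 in batch 2 and 69.7 ± 10.5 in batch 3, a log2 change of -1.69 ± 0.47 (edgeR adjusted p = 0.0189). Feature 1744 went with it, at 15.1 ± 16.9, 6.43 ± 4.13 and 2.86 ± 1.29 CPM (-1.65 ± 0.47, edgeR adjusted p = 0.0210). The SDs of these 2 features in batch 1 exceeded their means, since sample 6 of that batch held 1941 CPM of feature 1406 and 53.8 of feature 1744, where the other 7 libraries held 71.1 to 445 and 2.33 to 23.8. Feature 2604 was lower with less scatter, at 16.6 ± 7.74, 13.6 ± 4.19 and 5.70 ± 1.63 CPM (-1.30 ± 0.24, edgeR adjusted p = 0.00298), and feature 2699 fell by 1.37 on the log2 scale (edgeR adjusted p = 0.0176). The 1 higher member was feature 2990, at 13.0 ± 3.19, 13.5 ± 2.13 and 18.0 ± 4.54 CPM (0.53 ± 0.15, edgeR adjusted p = 0.0208). With samples 5 to 8 of batch 1 left out, 13 members were lower and 0 higher, beside 5.25% and 4.04% of all features. Against batch 2 alone 2 members were lower and 0 higher, beside 0.951% and 0.476%, and feature 2604 alone of the 5 named here kept its call. Leaving out sample 6 of batch 1 gave 25 members lower and 1 higher, beside 12.8% and 11.5% of all features. The log2 change of feature 1406 was -0.76 without samples 5 to 8 of batch 1 and -0.89 against batch 2 alone, that of feature 1744 was -0.96 and -1.03, and that of feature 2699 was -0.90 without those samples.

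In pool1, batch 3 was exposed and extracted 1 day after batches 1 and 2, and few members were called. There 5 members were higher and 4 lower, beside 4.23% and 4.46% of the 2692 features tested, so the share of members called is near that of the background. In simulated counts of this design, with the dispersion set to 0.4, 11% of 2-fold changes were recovered. A difference of that size in a given member could therefore easily have been missed. Feature 2458 had the largest rise, from 21.5 ± 12.4 CPM in batch 1 and 43.1 ± 12.3 in batch 2 to 68.3 ± 16.4 in batch 3 (log2 change 1.297 ± 0.27, edgeR adjusted p = 0.00761). Features 2205, 2484 and 1302 rose by 1.28, 1.28 and 1.10 (edgeR adjusted p = 0.0412, 0.0204 and 0.0202). In pool5 batch 3, features 2484 and 1302 were called lower instead (log2 changes -1.19 and -0.65, edgeR adjusted p = 6.27e-04 and 0.0342). Of the members, 3 were lower in pool5 batch 3 and higher in pool1 batch 3, and 2 were lower in both. These counts were not made for other features. Feature 1406, lower in both, held 582 ± 665, 133 ± 171 and 61.9 ± 28.0 CPM in batches 1, 2 and 3 of pool1 (-1.93 ± 0.55, edgeR adjusted p = 0.0317). Features 1744, 253 and 1683 fell by 2.22, 1.49 and 1.11 (edgeR adjusted p = 0.0329, 0.0462 and 0.0415). With samples 5 to 8 of batch 1 left out 2 members were higher and 0 lower, beside 1.45% and 0.884% of all features. The log2 change was then -0.75 for feature 1406 and -1.03 for feature 1744, neither of which passed. Against batch 2 alone no member passed, beside 0.0743% higher and 0.111% lower of all features, and the change was -0.88 for feature 1406, -0.62 for feature 1683, -0.89 for feature 253, 0.76 for feature 2458 and 0.83 for feature 2205.

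In batch 1 of pool1 and of pool5, against which batch 3 was compared, samples 5 to 8 stood above samples 1 to 4 in most members, a split noticed in the data and given without a test. In pool1 batch 1 the member median was 3.70 to 3.93 log2 CPM in samples 1 to 4 and 4.43 to 4.89 in samples 5 to 8. In pool5 batch 1 it was 3.70 to 3.91 and 4.03 to 4.72. Neither pair of ranges overlapped. All 4 later samples of pool1 batch 1 lay above all 4 earlier ones in 29 members, beside 16.2% of the 3177 features, and in pool5 batch 1 this held for 26 members, beside 13.4%. The median difference between these sample sets over members was 0.86 in pool1 batch 1 and 0.55 in pool5 batch 1, against 0.25 and 0.11 over the other features within the limits. In pool10 batch 2 the order was the opposite: the member median was 5.53 to 6.01 in samples 1 to 4 and 4.98 to 5.46 in samples 5 to 8, with 18 members fully separated in that direction, beside 8.94% of all features. The median difference over members was -0.34 there and -0.25 in pool20 batch 3. It lay between -0.16 and 0.14 in the other 8 batches. Over the other features within the limits it was -0.22 in pool10 batch 2 and -0.06 in pool20 batch 3. The split in pool10 batch 2 was therefore not confined to members. Library medians of the other features within the limits also separated fully in pool10 batch 2, in the same direction as the members. They separated in pool5 batch 1 too. Their median there was 4.68 to 4.92 in samples 1 to 4 and 4.96 to 5.00 in samples 5 to 8. The labels do not say what the sample numbers stand for.

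No member passed the test between pools of 5 and single larvae of the 12 December exposure. On the sums of 3 pool5 and 2 pool1 batches, edgeR called 0 members, which equals the 0% of 3084 features. At an unadjusted p below 0.05 there were 6 members and 174 features. DESeq2 called 0 members, beside 7 higher and 2 lower of 3173 features. On single libraries, with the extraction batch as a random effect, limma voom called 0 members, beside 14 higher and 8 lower of 2678 features. The members' log2 changes ran from -0.90 to 0.54 with a median of -0.07, the same median as in the other features within the limits. The members' median moved to between -0.24 and 0.03 when 1 batch sum was left out, so its sign is not settled. In simulated counts of this design 55% of 2-fold changes were recovered, so a difference of that size in a given member could have been missed.

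Spread among libraries was used to choose members in pool1 only, and it was narrower in larger pools. The median SD of log2 CPM within samples 1 to 4 or 5 to 8 of a batch was 0.68 among single larvae, 0.42 in pools of 5, 0.29 in pools of 10 and 0.26 in pools of 20. Since the limits were set on the pool1 value, the members and the other features within the limits all had to be spread there. The SD was below its pool1 value in 96 members in pool5 and in all 100 in pool10 and pool20. It was so in 639, 680 and 681 of the 681 other features. This holds for both sets, and as both met the same pool1 limits, it may follow in part from them. The SD was at least 0.45 in 32, 6 and 3 of the 100 members in pool5, pool10 and pool20. Among the 681 other features this held for 189, 23 and 7. The other features within the limits went from 0.59 in pool1 to 0.37, 0.27 and 0.22, slightly below the members at each size. Members did not move together strongly within batches: over 4950 pairs the median Pearson r across 24 libraries was 0.08, 0.11, 0.19 and 0.13 from the smallest to the largest pool size, against 0.05 to 0.07 in the other features. These pairs share libraries and depth, and correlations of this size in counts are no more than a description.

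**Figure D5:**
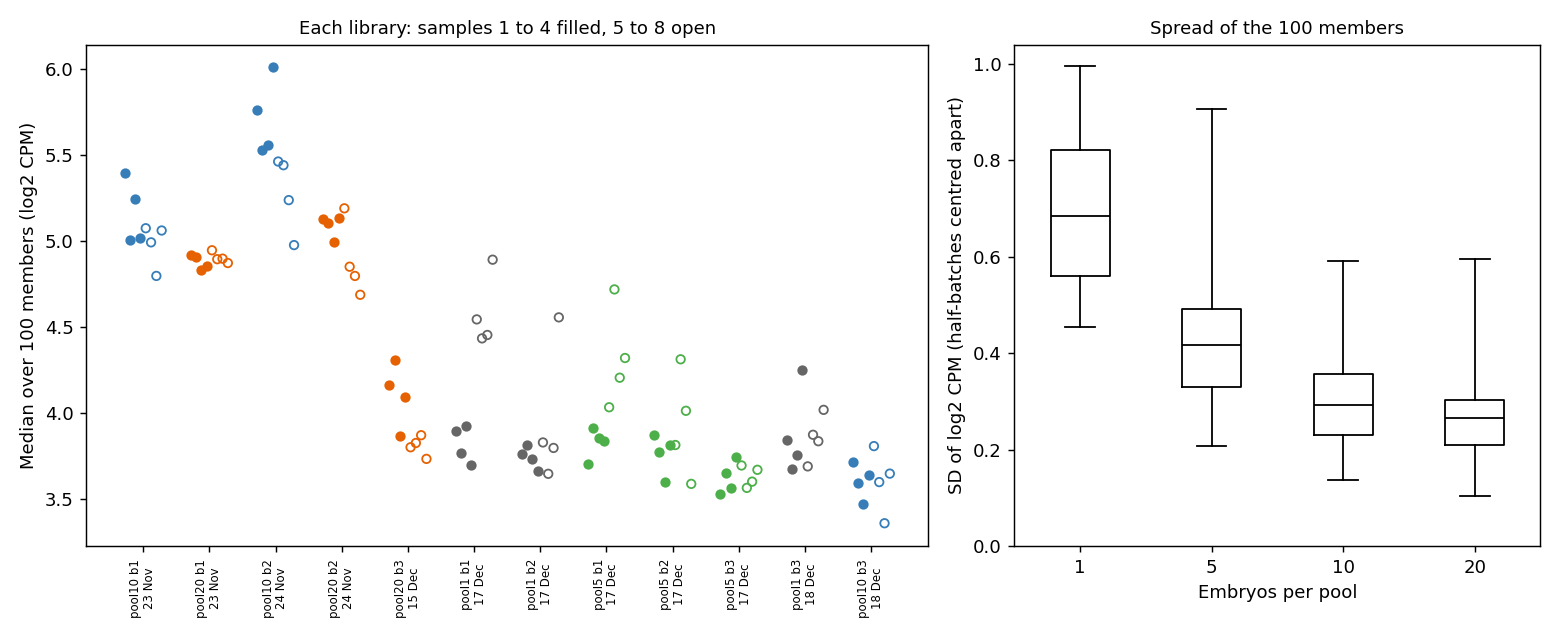
Left, median log2 CPM over the 100 members in each library by extraction batch (filled, samples 1 to 4; open, samples 5 to 8; grey pool1, green pool5, blue pool10, orange pool20). Right, SD of log2 CPM per member by number of larvae in the pool, with boxes at the quartiles, a line at the median and whiskers to the lowest and highest member. Open points of pool1 and pool5 batch 1 lie above the filled ones, and the median SD goes from 0.68 in pool1 to 0.26 in pool20.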

How the data were processed

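The authors deposited raw read counts, whole numbers per feature with no normalization, for 96 libraries. Per the submitters' processing notes the tools included RSEM 1.3.3, STAR 2.7.10a, DESeq2 1.31.15, fastp 0.23.2 and bcl2fastq 2.20, with no role stated for any. Genome build and annotation: not given in the sources used here.

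Pool size, batch and dates came from the labels. The members and lists were chosen with earlier results of these data known. Levels are counts scaled to 1000000 per library (CPM). The deposited counts were tested by quasi-likelihood in edgeR 4.0.16 (limma 3.58.1, R 4.3.3), with filterByExpr, TMM scaling and Benjamini-Hochberg adjustment over all features tested at 0.05. The SE of a log2 change is its size divided by the square root of F. Contrasts were 24 against 23 November (32 libraries), batch 3 against batches 1 and 2 within pool5 and within pool1 (24 each), and pool5 against pool1 on 5 batch sums. Alternatives were DESeq2 1.42.0, its size factors in edgeR, no filter, a replicate block, samples 5 to 8 of batch 1 left out, other scalings of the rule, and 2 settings chosen after seeing the data (batch 3 against batch 2 alone, and leaving out sample 6 of pool5 batch 1). For pool5 against pool1, 1 batch sum was left out in turn. Limma voom was run there on single libraries with the extraction batch as a random effect.

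Tested on simulated data with 2-fold changes, the November contrast in pool10 recovered 97%, batch 3 of pool5 91%, batch 3 of pool1 11%, and the batch sums 55%. The dispersion was set to 0.04, 0.1, 0.4 and 0.05 in turn, the same for every feature, and was not estimated from these libraries. Whether the samples of a batch had their own dish or parents is not in the labels. The p-values therefore reflect only how far these samples scatter, and that scatter may be technical. Identical columns were searched for, and 0 were found. Reads carry no molecular identifiers, so a limit of 3 counts for a count of 0 covers counting error only. The features named are the 6 top-ranked members in every group, the next 4, up to 4 called members per direction and contrast by size of change, the extremes of the rule's values, and the 3 features on each side of the threshold.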

Additional observations from a re-analysis of the deposited data

Results flagged for a closer look

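Single libraries stood apart from the other 7 of their batch (Dixon's test at its 95% critical value) in 12 of 84 sets checked, of the 6 top members and the member median in 12 batches. Chance flags about 1 in 20 groups, or 4.2 here, where values follow a normal distribution. The 6 top members were checked on CPM without a log, where high values stretch further than low ones. That rate may therefore not hold here, and the number of flags is no measure of unusual libraries. Feature 790 gave 5 of them: 48.6 CPM in sample 1 of pool10 batch 1 (others 13.2 to 29.01), 26.8 in sample 4 of pool20 batch 1 (14.5 to 18.7), 69.3 in sample 4 of pool20 batch 2 (16.3 to 41.1), 10.5 in sample 4 of pool5 batch 3 (1.82 to 3.05) and 7.51 in sample 1 of pool10 batch 3 (0.746 to 2.51). Feature 2207 held 50.7 CPM in sample 4 of pool10 batch 2 (18.6 to 33.6), 31.4 in sample 2 of pool1 batch 2 (4.20 to 11.5) and 21.8 in sample 2 of pool1 batch 3 (5.85 to 12.9).

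Feature 1683 held 30.01 CPM in sample 2 of pool20 batch 3 (others 13.2 to 19.4) and 88.6 in sample 6 of pool5 batch 1 (11.4 to 27.2). Feature 703 held 30.1 CPM in sample 5 of pool10 batch 3 (12.3 to 19.4). The member median was 4.56 log2 CPM in sample 8 of pool1 batch 2, where the other 7 libraries lay at 3.65 to 3.83. That library also held 555 CPM of feature 1406 (others 47.6 to 92.1) and 44.96 CPM of feature 1744 (2.24 to 12.6). All 12 of these values were high ones. Apart from the member median they were on the scale without a log, which favours high flags.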

How the results depend on the processing

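The members' median December differences kept their direction in every setting. The members were chosen by these differences, so this follows largely from the choice and is description only. The members' median log2 change in pool1 batch 3 did not keep its direction, at -0.10 against batches 1 and 2. It was 0.11 without samples 5 to 8 of batch 1 and 0.03 against batch 2 alone. The median between pool5 and pool1 also changed sign, as given above. Leaving out samples 5 to 8 of batch 1 gave 24 higher and 8 lower members on 24 November in pool10. In pool20 this omission gave 11 lower, beside 13.0% of all features. The same omission gave 0 higher and 13 lower in pool5 batch 3, and 2 higher and 0 lower in pool1 batch 3. It leaves fewer samples, and whether that or the samples' levels moved the counts was not tested. Against batch 2 alone, chosen after seeing the data, pool5 batch 3 gave 0 higher and 2 lower, and pool1 batch 3 gave 0 and 0. DESeq2 gave 8 higher and 8 lower in pool1 batch 3, beside 5.68% and 5.78% of all 3167 features it tested. Equal sample numbers did not pair samples: the median correlation of same-numbered deviations between batches ran from -0.07 to 0.16, and at most 3 of 8 samples correlated best with their own number. With the numbers as a replicate block, 42 members were higher and 16 lower on 24 November in pool10. The shares of all features were 26.77% and 28.35%. In pool20 the block gave 20 and 17 members, beside 20.54% and 18.99% of all features. In pool5 batch 3 it gave 2 and 21, beside 11.16% and 8.635%. In pool1 batch 3 it gave 5 and 2, beside 4.012% and 3.603%. The pool20 and pool1 counts are close to the shares of all features. The members' median pool10 difference was -1.09 with TMM-adjusted totals and -1.86 against November batch 2 alone, and the pool20 one -0.65 with TMM. Rerun with TMM, the rule kept 84 of the 100 members. Of 163 values for features named in a test, 138 kept their call and 25 lost it, 12 of these against batch 2 alone; none changed sign. For batch 3 of pool1, simulated at the depths of the pool1 libraries with a dispersion set to 0.4, 11% of 2-fold changes were recovered.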
